A study of Homo sapiens with 2 samples.

Results

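MYC-high cells were the cells of each library with the largest MYC share, that is, MYC UMIs divided by all UMIs of the cell. A UMI is a molecular barcode that marks 1 captured RNA molecule. In each library, barcodes with at least 200 detected genes, at most 20% mitochondrially encoded UMIs and at least 4400 UMIs were kept as cells, and the 20% of them with the highest MYC share were taken as members. This gave 154 MYC-high cells of 769 in the SP11 library and 193 of 963 in the control library, 347 of 1732 cells in all. Each was set against a cell of the same library with 0 MYC UMIs (a MYC-0 cell) whose total UMI count lay within 10%. Partners were found for 154 SP11 and 192 control members.

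The series held 1 library of SP11-treated cells and 1 of untreated cells, both labelled MOLT4, a human T-cell acute lymphoblastic leukemia line. SP11 is described by the study as an inhibitor of HSP90, the chaperone that keeps many signalling proteins folded, and it was given at its IC50, 0.8 µM, for 48 h. The control library is labelled untreated, and no vehicle is named for it in its labels. With 1 library per condition there was no replicate check. All intervals are 95% intervals of counting error, which leave out the variation between cells and between cultures, and no p-value was computed.

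MYC is a transcription factor that pairs with MAX and binds the E-box CACGTG at active promoters. It is best known for raising the output of ribosome biogenesis, nucleotide synthesis and protein folding genes, and it is a main oncogene of T-cell leukemia, where NOTCH1 drives its transcription. Its own RNA and protein are short-lived, so single cells of 1 culture can differ widely in MYC RNA.

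The median cell held 11222 UMIs and 3568 genes in the SP11 library and 18250 UMIs and 5237 genes in the control library. The libraries shared 114 barcode names. The label was checked against 18 T-lineage markers. In MYC-high cells their levels summed to 44.2 CPM (UMIs scaled to a common total) in the SP11 library and 74.5 CPM in the control library, most of it CD4 (36.3 and 66.6 CPM), and 13 and 12 of the 18 had no UMI at all, CD3D among them. Granulocyte precursor markers summed to 1000 CPM in SP11 and 2189 CPM in control MYC-high cells, led by the granule proteases ELANE and CTSG, although MPO had 1 UMI in SP11 and 0 in control members. Monocyte or macrophage markers summed to 849 and 296 CPM, B cell markers to 4.84 and 3.09 CPM and NK markers to 202 and 200 CPM (nearly all from NKG7), and the 3 erythroid markers were at 0 in both. The cells are therefore called by library and by MYC share, not by lineage.

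**Figure D1:**
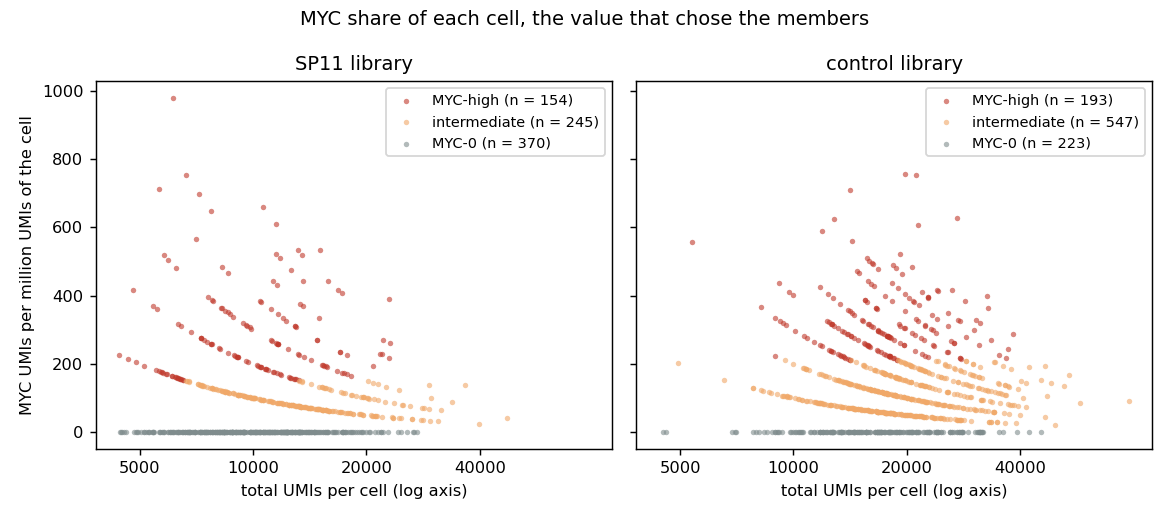
MYC share of each cell in CPM (vertical axis) against its total UMIs (log axis), in the SP11 library on the left and the control library on the right. Each point is 1 cell, and the curved rows are cells with 1, 2, 3 and more MYC UMIs. Below the members lie 245 intermediate cells of the SP11 library and 547 of the control library.

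Because the share of MYC UMIs chose the members, its values are given as a description. MYC-high cells of the SP11 library held 1 to 9 MYC UMIs with a median of 3, and those of the control library held 2 to 17 with a median of 5. In the SP11 library 23 members were chosen on a single MYC UMI and 46 on 2, whereas 192 of the 193 control members held 3 or more. The plot of MYC share by depth shows this as rows of points, with shallow cells entering the members on fewer molecules. Just inside and just outside the threshold the share was 151.5 and 151.0 CPM in the SP11 library and 211.6 and 211.3 CPM in the control library.

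Summed over members, MYC stood at 285 CPM (interval 260 to 312) in SP11 MYC-high cells and 325 CPM (306 to 344) in control MYC-high cells, against 83.1 and 125 CPM over all cells of each library. The members held 60.9% of all MYC UMIs of the SP11 library and 48.0% of those of the control library. MYC-0 cells made up 48.1% (44.5 to 51.7) of SP11 cells and 23.2% (20.5 to 26) of control cells, at unequal depths. Had every cell held the MYC share of its library, counting alone would have left 39.7% of SP11 and 11.6% of control cells at 0 MYC UMIs. At the control threshold, 98 SP11 cells (12.7%) qualified against 193 control cells (20%). At the SP11 threshold, 154 SP11 cells (20%) qualified against 314 control cells (32.6%). When each cell's UMIs were divided at random into 2 parts, with members chosen on one part and MYC read in the other, MYC stood at 169 CPM in SP11 members and 218 CPM in control members. The MYC-0 cells of the same divisions held 61.2 and 74.1 CPM in the part that had not chosen them. A MYC-0 cell is thus one in which no MYC molecule was captured, and it is not shown to lack MYC RNA.

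Cells called G1 were more frequent among MYC-high than among MYC-0 cells in both libraries. Of the paired SP11 cells, 68 MYC-high (44.2%, 36.2 to 52.4) and 47 MYC-0 (30.5%, 23.4 to 38.4) were called G1 from Seurat's cycle gene scores. Of the paired control cells, 78 MYC-high (40.6%, 33.6 to 47.9) and 42 MYC-0 (21.9%, 16.2 to 28.4) were called G1. S calls went the other way, with 24.0% (17.5 to 31.6) of MYC-high against 34.4% (27.0 to 42.5) of MYC-0 cells in the SP11 library. In the control library they were 34.9% (28.2 to 42.1) against 44.8% (37.6 to 52.1). Of these G1 and S comparisons, only G1 in the control library had intervals that did not overlap. Detected genes were close at a median of 3442 in MYC-high and 3393.5 in MYC-0 cells of the SP11 library, and 5089.5 and 4992 in the control library. Mitochondrially encoded UMIs made up a median of 5.91% of MYC-high and 5.47% of MYC-0 cells in the SP11 library, and 8.98% and 9.43% in the control library. In triples that added matched intermediate cells, G1 calls were 29.1% of MYC-0, 22.8% of intermediate and 40.2% of MYC-high cells in the SP11 library. In the control library they were 21.9%, 30.2% and 40.6%, so the G1 share rose in order of MYC there only. G2M calls were most frequent in intermediate cells, at 48.8% in the SP11 and 36.5% in the control library. The phase calls read the same RNA as the gene comparisons and differed between MYC-high and MYC-0 cells. Results on cycling genes are therefore also given within phases. The S phase and G2M lists are the genes that gave these calls. Their ratios within a phase are bound by the calls and are given as a description only.

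Across genes, most stood close to the same level in MYC-high and MYC-0 cells. A gene was measured in a library where both sets of paired cells together held at least 200 of its UMIs, and it was counted as higher or lower where the log2 ratio of its CPM was at least 0.32 in size, which is a chosen size and not a test. A summed level cannot tell more cells with a gene's RNA from more RNA per cell. In the SP11 library 190 of 2797 measured genes (6.79%) were higher and 160 (5.72%) lower in MYC-high cells, around a median log2 ratio of 0.02. In the control library 603 of 5883 (10.2%) were higher and 399 (6.78%) lower, around a median of 0.03. Of 2779 genes measured in both libraries, 48 (1.73%) were higher in both and 27 (0.972%) lower in both. Without the barcode names shared by the libraries, these counts were 51 and 26, of which 31 and 18 were among the 48 and 27. Across these genes the 2 sets of log2 ratios had a Spearman rho of 0.28, and genes are not independent replicates.

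**Figure D2:**
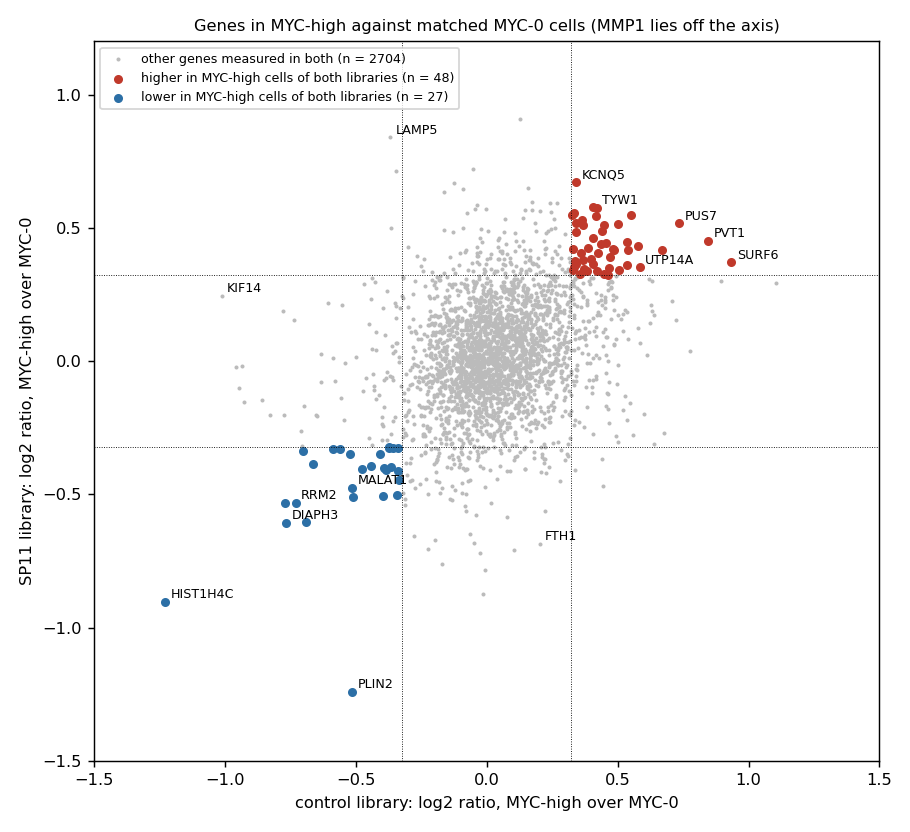
Log2 ratio of CPM, MYC-high over matched MYC-0 cells, in the SP11 library (vertical axis) and the control library (horizontal axis). Each point is 1 gene measured in both libraries, dotted lines mark 0.32 in either direction, and red and blue points are the 48 genes higher and the 27 lower in both, with PVT1, PUS7 and SURF6 at the upper right and HIST1H4C and PLIN2 at the lower left.

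Genes that build ribosomes were often higher in MYC-high than in MYC-0 cells of the control library, and few of them were in the SP11 library. Of the measured genes of a nucleolar and ribosome biogenesis list, 3 of 29 were higher and 0 lower in the SP11 library, with a median log2 ratio of 0.16, and 24 of 41 were higher and 0 lower in the control library, with a median of 0.43. The medians over all measured genes were 0.02 and 0.03. The count of the SP11 library lay near its background over all genes, and that of the control library above it. A ratio above 0 was seen for 26 of the 29 and 40 of the 41 genes. As a sum, the list held 9362 CPM in MYC-high and 8298 CPM in MYC-0 cells of the SP11 library, a log2 ratio of 0.17 (0.14 to 0.21), and 7171 and 5890 CPM in the control library, 0.28 (0.26 to 0.31). In 105 of 154 SP11 pairs and 148 of 192 control pairs the MYC-high cell had the larger share of UMIs from the list.

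The list's members had unlike ratios. PUS7, a pseudouridine synthase that modifies RNA (chromosome 7, 105439661 to 105522271 on GRCh38), held 173 UMIs in MYC-high and 121 in MYC-0 cells of the SP11 library, a log2 ratio of 0.52 (0.17 to 0.86), and 509 and 306 UMIs in the control library, 0.74 (0.53 to 0.95). WDR43, a subunit of the complex that processes the small ribosomal subunit's RNA, held 599 and 449 UMIs in the SP11 library (0.42) and 745 and 533 in the control library (0.48). DKC1, the pseudouridine synthase of the small nucleolar particles and telomerase, held 521 and 416 UMIs in the SP11 library (0.33) and 938 and 688 in the control library (0.45). These were the 3 genes of the list counted as higher in both libraries. NCL, the abundant nucleolar protein nucleolin, stood below that size with log2 ratios of 0.28 and 0.26, and NPM1, which chaperones ribosome assembly, with 0.10 in both. POLR1B, the second largest subunit of RNA polymerase I, had the highest ratio of the list in the control library at 0.86 (0.54 to 1.2), with 220 UMIs in MYC-high against 121 in MYC-0 cells, and too few UMIs to be measured in the SP11 library. Among the 48 genes higher in both libraries, several outside the list also act in ribosome production (these were picked after their values were seen). SURF6, a nucleolar protein, had log2 ratios of 0.37 in the SP11 and 0.93 in the control library, UTP14A of the small subunit processome 0.35 and 0.58, and TWISTNB, an RNA polymerase I subunit, 0.51 and 0.50.

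**Figure D3:**
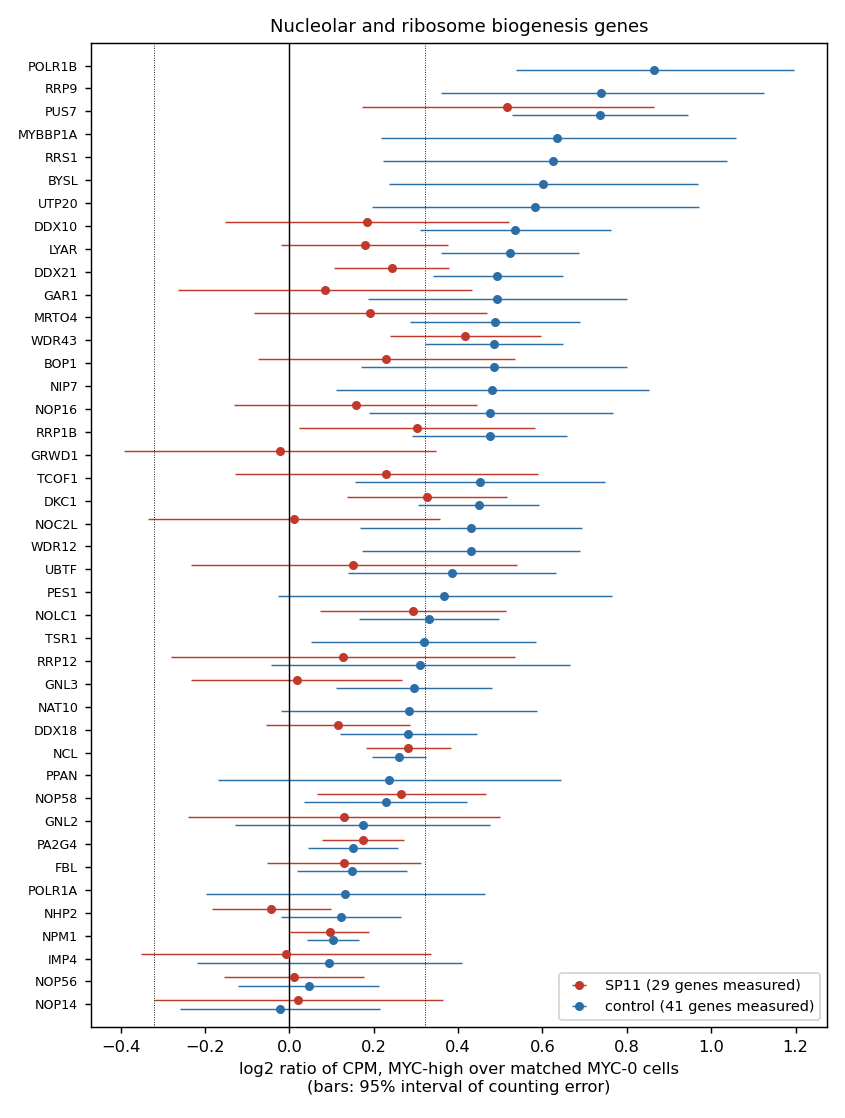
Log2 ratio of CPM, MYC-high over matched MYC-0 cells, for each gene of the nucleolar and ribosome biogenesis list with enough UMIs, in the SP11 library (red) and the control library (blue). Bars are 95% intervals of counting error and dotted lines mark 0.32 in either direction; PUS7, WDR43 and DKC1 lie past the upper line in both libraries.

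The nucleolar list had a summed ratio above 0 within each phase. In G1, S and G2M pairs matched within the phase, its summed log2 ratio was 0.20, 0.27 and 0.11 in the SP11 library and 0.40, 0.17 and 0.33 in the control library. Its median over genes was 0.26 in the control library when cells were matched within clusters (127 pairs). When every cell was thinned to 4400 UMIs before members were chosen, the median was 0.01 in the SP11 and 0.15 in the control library. MYC then stood at 214 CPM in members and 44.1 CPM in their partners in the SP11 library. In the control library it stood at 234 and 78.9 CPM. Whether this change in MYC had a part in the lower medians was not tested.

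The E-box was looked for in promoters because MYC and MAX bind these letters. RefSeq promoters (250 bases before to 50 after the gene start, GRCh38.p14) matched 40 of the 48 genes higher in both libraries, and 8 of the 40 held CACGTG (20%, 9.05 to 35.6), against 2 of 21 genes lower in both (9.52%), 280 of 2298 genes measured in both (12.2%) and 2030 of all 27305 promoters (7.43%). The interval of the genes higher in both thus included the 12.2% of genes measured in both. Of the genes of the nucleolar list measured in either library, 13 of 34 with a promoter held it (38.2%, 22.2 to 56.4). That set was not limited to genes measured in both, and it took the list's genes whatever their ratio. The list was chosen with earlier results of these data known. Its share thus describes the list and not the MYC-high cells. The letters read the same on both strands, and their presence is a description and not a binding site. The stretches around the motif are shown for 5 of the genes higher in both, each on the strand of its gene and with the E-box in capitals. They are SLC25A33, a mitochondrial pyrimidine nucleotide carrier (chr1:9539422-9539461, plus strand), SDAD1, which acts in large subunit biogenesis (chr4:75991151-75991190, minus strand), MTHFD1L, the mitochondrial formate-producing enzyme of one-carbon metabolism (chr6:150866315-150866354, plus strand), SURF6 (chr9:133336390-133336429, minus strand) and UTP14A (chrX:129905914-129905953, plus strand).
SLC25A33: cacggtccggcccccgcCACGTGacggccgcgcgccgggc
SDAD1: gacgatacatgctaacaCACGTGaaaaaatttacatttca
MTHFD1L: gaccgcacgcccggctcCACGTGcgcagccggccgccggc
SURF6: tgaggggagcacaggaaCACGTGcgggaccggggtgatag
UTP14A: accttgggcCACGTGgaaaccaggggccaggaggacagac
The 5 differ in the bases that flank the motif, which lay 26, 228, 154, 224 and 241 bases before the gene start in the same order of genes. MTHFD1L held 423 UMIs in MYC-high and 317 in MYC-0 cells of the SP11 library (log2 ratio 0.42), and 1378 and 950 in the control library (0.54). SLC25A33 had ratios of 0.42 and 0.33, and SDAD1 of 0.38 and 0.34.

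PVT1, the long noncoding RNA gene next to MYC, was higher in MYC-high cells of both libraries. It lies on the same strand of chromosome 8 at 127794526 to 128187101 (GRCh38), 51.6 kb downstream of MYC. It held 276 UMIs in MYC-high and 202 in MYC-0 cells of the SP11 library (167 against 122 CPM), a log2 ratio of 0.45 (0.18 to 0.72), and 1054 and 587 UMIs in the control library (297 against 165 CPM), 0.85 (0.70 to 0.99). No single cell held over 4% of its UMIs in any of the 4 sets. Within G1, S and G2M its ratio was 0.25 (-0.15 to 0.64), 0.73 (0.16 to 1.31) and 0.22 (-0.25 to 0.69) in the SP11 library. In the control library it was 0.51, 0.76 and 0.99. The SP11 intervals in G1 and G2M included 0. CCDC26, a noncoding RNA gene 891 kb from MYC on the same side, had a ratio of 0.15 (-0.16 to 0.47) in the SP11 library and -0.74 (-0.84 to -0.63) in the control library. These 2 noncoding genes thus stood on opposite sides of 0 in the control library. CCDC26 was named after its values were seen.

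Other growth-related lists are read against the 6.79% of all SP11 genes and 10.2% of all control genes that were higher. Nutrient transport, iron uptake and glycolysis had 0 of 16 genes higher in the SP11 library, with a summed log2 ratio of -0.09 (-0.12 to -0.06). In the control library 4 of 21 were higher and 2 lower, with a summed ratio of -0.01. Translation factors had 0 of 34 and 3 of 36 genes higher. Mitochondrial protein import and chaperones had 2 of 27 and 1 of 28 higher. The aminoacyl-tRNA synthetases had 2 of 13 genes higher and a median of 0.22 in the SP11 library, and 0 of 20 and 0.07 in the control library. HSP90 and cytosolic chaperones had 2 of 23 higher with a median of 0.10, and 4 of 27 with a median of 0.16, and none lower in either. HSP90AA1, the inducible HSP90 isoform, stood at 2211 CPM in MYC-high and 2093 CPM in MYC-0 cells of the SP11 library (0.08), and at 1106 and 1014 CPM in the control library (0.13). HSP90AB1, the constitutive isoform, had ratios of 0.15 and 0.11. Both isoforms lay below the size counted as higher. For nucleotide, polyamine and one-carbon synthesis the SP11 library had 5 of 20 genes higher and 3 lower, and the control library 4 of 26 higher and 0 lower. The SP11 share of this list was thus above the share of all genes in both directions. AMD1, which makes the aminopropyl donor of polyamine synthesis, had ratios of 0.34 and 0.42. RUVBL1, an ATPase that binds MYC and works in chromatin remodelling, had 0.38 and 0.40. In the MYC and MAX network list 2 of 10 genes were higher and 1 lower in the SP11 library, and 3 of 19 higher and 3 lower in the control library. PIM1, a kinase that cooperates with MYC, was lower in both libraries, with 94 UMIs in MYC-high and 143 in MYC-0 cells of the SP11 library (-0.60) and 114 and 184 in the control library (-0.69). A list of genes known as repressed by MYC had 1 of 4 genes higher and 1 lower in the SP11 library, with a median of -0.04 and a summed ratio of -0.56. In the control library 1 of 7 was higher and 1 lower, with a median of -0.23 and a summed ratio of -0.08.

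Several genes of DNA replication and chromatin packing were lower in MYC-high cells. HIST1H4C, a replication-dependent histone H4 gene, held 1807 UMIs in MYC-high and 3380 in MYC-0 cells of the SP11 library, a log2 ratio of -0.90 (-0.99 to -0.82), and 1454 and 3410 in the control library, -1.23 (-1.32 to -1.14). All 7 measured histone genes of the control library were lower, with a median of -1.23. The histone difference moved with clusters. An SP11 cluster had mostly histone genes among its leading genes, with CXCL10 first and IFIT3 also among them. It held 11 MYC-high and 30 MYC-0 cells of the SP11 pairs. A control cluster led by histone genes held 16 and 69. With pairs drawn within clusters the ratio of HIST1H4C was 0.19 in the SP11 and 0.07 in the control library. Within phases it was -1.29, -1.97 and 0.94 (G1, S and G2M) in the SP11 library and -0.21, -1.11 and -0.73 in the control library. In SP11 G2M pairs it was thus higher in MYC-high cells. HIST1H4C belongs to a family of near-identical copies, as FTH1 does with its pseudogenes, so how their reads were shared out is uncertain. RRM2, the regulatory subunit of ribonucleotide reductase, had ratios of -0.53 in the SP11 and -0.73 in the control library, but -0.23 in both when pairs were drawn within clusters and -0.03 in the SP11 library after thinning. ATAD2, a chromatin ATPase active in S phase, had -0.41 and -0.48, but 0.02 in the SP11 library after thinning and -0.20 in the control library within clusters. Neither gene was thus counted as lower in both libraries in these settings.

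Of the S phase list 0 of 25 measured genes were higher and 6 lower in the SP11 library (5.72% of all genes lower), with a median of -0.11, and 2 of 40 higher and 8 lower in the control library (6.78% of all genes lower), with a median of -0.08. Within phases the direction was not the same. The list's summed ratio was 0.19 (0.10 to 0.27) in G1, -0.17 in S and -0.01 in G2M pairs of the SP11 library, and 0.24 (0.15 to 0.34), -0.13 and -0.09 in the control library. In G1 pairs of both libraries its sum was higher in MYC-high cells. The list itself helped to make the calls, so no conclusion on S phase genes apart from phase is drawn. RRM2 had ratios of -0.22, -0.65 and -0.13 (G1, S and G2M) in the SP11 library and 0.07, -0.53 and -0.72 in the control library. ATAD2 had 0.02, -0.69 and -0.19 in the SP11 library and 0.25, -0.41 and -0.44 in the control library.

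Mitotic genes differed between MYC-high and MYC-0 cells mainly in the control library, but the libraries were close when pairs were drawn within clusters. Of the G2M list, 2 of 28 genes were higher and 2 lower in the SP11 library with a median of 0.00, and 1 of 46 was higher and 30 lower in the control library with a median of -0.61. Summed, the list stood at 6056 CPM in MYC-high and 6114 CPM in MYC-0 cells of the SP11 library, and at 4927 and 6549 CPM in the control library. TOP2A, the topoisomerase that untangles chromosomes, had a ratio of -0.20 in the SP11 and -0.83 in the control library, and the mitotic kinase gene AURKA -0.17 and -0.70. Within clusters AURKA had -0.49 in the SP11 and -0.14 in the control library, so the order of the libraries for this gene was the opposite one. KIF14, a kinesin of cytokinesis, held 122 UMIs in MYC-high and 103 in MYC-0 cells of the SP11 library (0.25, -0.15 to 0.64), and 216 and 436 in the control library (-1.01, -1.25 to -0.77). Matched within the phase, the list's summed ratio was 0.16 in G1, -0.18 in S and -0.07 in G2M pairs of the SP11 library, and 0.37, -0.41 and -0.28 in the control library. In G1 calls of both libraries the list's sum was higher in MYC-high cells, and in S and G2M calls it was lower. The list itself helped to make the calls, so no conclusion on mitotic genes apart from phase is drawn. Matched within clusters, which left 127 of the 192 control pairs, the median was -0.08 in the SP11 and -0.11 in the control library. Which part of the change in the control library came from the clusters and which from the lost pairs was not tested.

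Other genes lower in both libraries had various roles. DIAPH3, a formin that builds actin filaments, had ratios of -0.61 and -0.77, MALAT1, a nuclear-retained noncoding RNA, -0.47 and -0.51, and PLIN2, which coats lipid droplets, -1.24 and -0.51. PLIN2 held 115 UMIs in MYC-high and 272 in MYC-0 cells of the SP11 library, and 100 and 143 in the control library. Without the cell of the highest count in each set, 47 of the 48 genes were still counted as higher in both libraries and 21 of the 27 as lower.

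KCNQ5, a potassium channel gene, and TYW1, which modifies tRNA, were counted as higher in both libraries and stood outside the lists. KCNQ5 held 542 UMIs in MYC-high and 340 in MYC-0 cells of the SP11 library (0.67, 0.48 to 0.87) and 2088 and 1650 in the control library (0.34, 0.25 to 0.44). TYW1 held 146 and 98 UMIs in the SP11 library (0.58) and 317 and 237 in the control library (0.42).

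In the SP11 library, several myeloid and inflammatory genes were lower in MYC-high cells. Of the monocyte and macrophage list 0 of 15 measured genes were higher and 6 lower (5.72% of all genes lower), with a median of -0.27 that was -0.09 with an equal weight for every cell, and of the NF-kB and AP-1 response list 0 of 5 were higher and 3 lower. In the control library these lists had 1 of 13 higher and 1 lower (median 0.04), and 1 of 5 higher and 0 lower (median -0.01). The monocyte or macrophage markers summed to 849 CPM in MYC-high cells and 1128 CPM over all cells of the SP11 library, and to 296 and 300 CPM in the control library. Of the 10, 3 were at 0 in SP11 members and 2 in control members (CD14 and VCAN in both). In the control library SPP1 held 120 UMIs in MYC-high cells and 125 over all cells (33.7 against 6.49 CPM). Every other marker there stood lower in MYC-high cells, with LYZ at 220 against 242 CPM. The part of these markers in the result was not tested. LYZ, the secreted enzyme lysozyme, held 925 UMIs in MYC-high and 1509 in MYC-0 cells of the SP11 library (-0.71, -0.82 to -0.59), against 781 and 913 in the control library (-0.22, -0.36 to -0.08). SOD2, the mitochondrial superoxide dismutase, had ratios of -0.78 in the SP11 and -0.01 in the control library, and IFI30, a lysosomal thiol reductase, -0.87 and -0.01. The chemokine genes CCL2 and CXCL8, named after their values were seen, had -1.08 and -1.21 in the SP11 library and too few UMIs to be measured in the control library. FTH1, the ferritin heavy chain, held 4366 UMIs in MYC-high and 7028 in MYC-0 cells of the SP11 library, a ratio of -0.69 (-0.74 to -0.63). In the control library FTH1 held 3298 and 2871 UMIs (0.20), of which 23.6% of the MYC-high UMIs came from 1 cell, and without the highest cell of each set its ratio was -0.08. It was -0.52 within clusters and -0.48 with the top 10% as members, so that FTH1 was then counted as lower in the control library too. MMP1, a collagenase gene, had the highest ratio of the control library at 3.0, with 97.9% of its MYC-high UMIs in 1 cell, and that ratio describes this cell. MMP1 was also the 1 gene of the monocyte and macrophage list counted as higher in the control library.

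The SP11 library held 2 small clusters, of 10 and 19 cells. Their leading genes began with MDH1, FTH1 and BCL2A1 in the first and with ATP6V0D2, SLC26A11 and TDO2 in the other. Of the 10 cells of the first, 9 were MYC-0, at a median of 5595 UMIs per cell against 11222 in the whole library. The part of this low depth was not tested. With clusters of under 20 cells left out, FTH1 had a ratio of -0.79, SOD2 of -0.69, LYZ of -0.61 and PLIN2 of -1.27 in the SP11 library. The median of the monocyte and macrophage list was -0.17 without them. With members chosen after thinning, FTH1 had -0.16, SOD2 -0.30, LYZ -0.38 and PLIN2 -0.52 in the SP11 library, so FTH1 and SOD2 were then not counted as lower. Within phases the NF-kB and AP-1 list had summed ratios of -0.53, -0.72 and -0.52 (G1, S and G2M) in the SP11 library and -0.24 (-0.44 to -0.05), 0.16 and -0.09 in the control library. In G1 pairs it was thus lower in MYC-high cells of both libraries.

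The ribosomal protein and mitochondrially encoded lists had almost no genes counted as higher or lower. Of cytosolic ribosomal protein genes 0 of 83 were higher and 1 lower in the SP11 library (median 0.01), and 0 of 84 either way in the control library (median -0.04). Of the mitochondrially encoded genes 0 of 11 and 0 of 13 were higher or lower, with medians of 0.14 and -0.01. Granulocyte precursor granule genes had 0 of 10 higher and 2 lower in the SP11 library and 0 of 13 higher and 3 lower in the control library, with ELANE, neutrophil elastase, at -0.14 and -0.05. No T lineage gene was measured in the SP11 library, and both that were measured in the control library were neither higher nor lower. Among all genes, 6.79% were higher and 5.72% lower in the SP11 library, and 10.2% and 6.78% in the control library, and several small lists lay above these shares. Interferon-stimulated genes had 0 of 6 higher and 2 lower in the SP11 library (median -0.25) and 2 of 6 higher and 0 lower in the control library (median 0.16). Proteasome subunit genes had 0 of 30 higher and 2 lower in the SP11 library, and 1 of 31 higher and 0 lower in the control library. Cholesterol synthesis genes had 1 of 5 higher and 1 lower in the SP11 library, and 0 of 15 higher and 4 lower in the control library. BCL2, the survival factor gene, had a ratio of 0.17 in the control library and too few UMIs in the SP11 library.

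**Figure D4:**
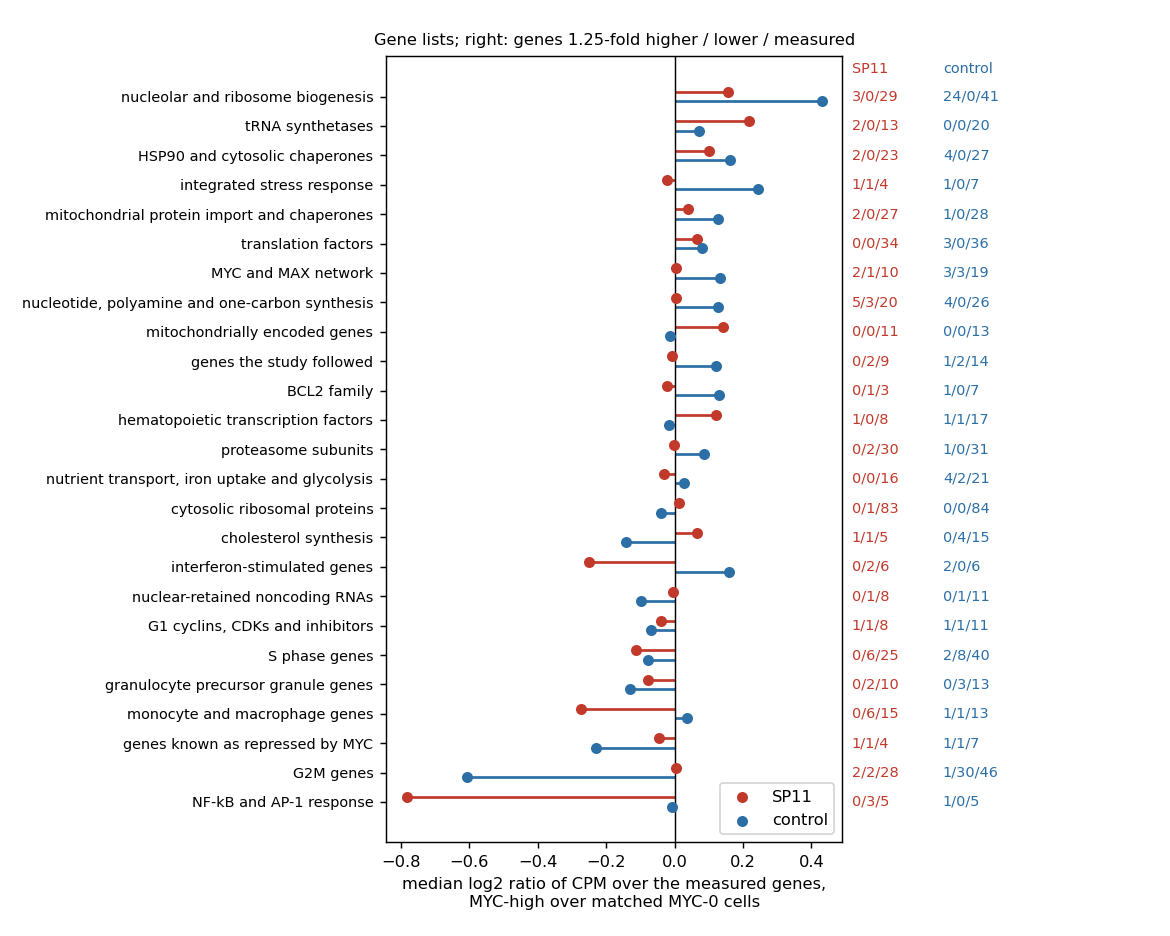
Median log2 ratio of CPM over the measured genes of each list, MYC-high over matched MYC-0 cells, in the SP11 library (red) and the control library (blue). Counts on the right give genes higher by at least 0.32 on the log2 scale, lower by as much, and measured; the nucleolar list stands at 0.16 and 0.43, the G2M list at 0.00 and -0.61.

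Intermediate cells, with MYC UMIs but outside the members, lay between the other sets for several lists. In cells of 3 MYC levels matched on total UMIs (127 SP11 and 192 control triples), the nucleolar list summed to 8319, 8980 and 9422 CPM in MYC-0, intermediate and MYC-high cells of the SP11 library, and to 5890, 6351 and 7171 CPM in the control library. In the SP11 library 16 of its 29 genes ranked in this order (55.2%) against 21.5% of all measured genes, and in the control library 34 of 41 (82.9%) against 27.5%. The chaperone list followed with 11 of 23 and 17 of 27 genes. The reverse order held for 2 of 28 G2M genes in the SP11 library and 30 of 46 in the control library, and for 9 of 15 monocyte and macrophage genes in the SP11 library, against 18% of all measured genes in the SP11 and 19.9% in the control library. It also held for 50 of 84 cytosolic ribosomal protein genes in the control library, of which 0 ranked upward, and for 6 of 83 in the SP11 library. The upward order was also held by 8 of 11 mitochondrially encoded genes in the SP11 library, and the downward order by all 7 histone genes in the control library.

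**Figure D5:**
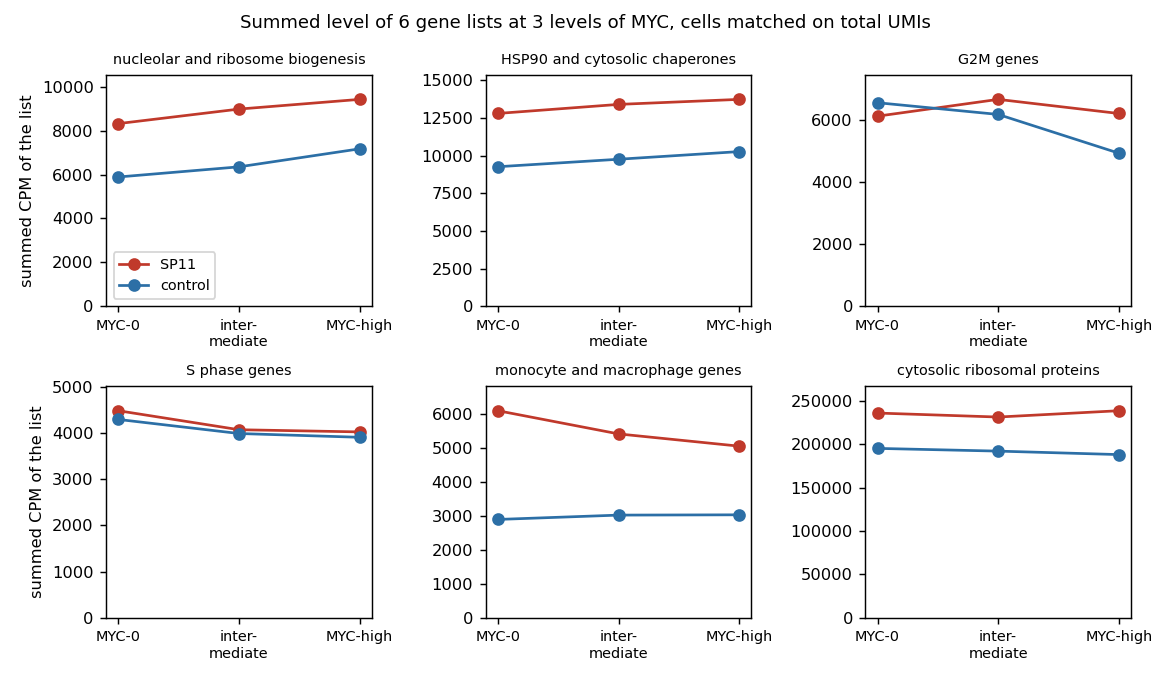
Summed CPM of 6 gene lists (vertical axes, from 0) in MYC-0, intermediate and MYC-high cells matched on total UMIs, in the SP11 library (red) and the control library (blue). The nucleolar list has its highest sum in MYC-high cells of both libraries, and the lowest sums are seen in MYC-high cells for the G2M list of the control library (4927 CPM) and the monocyte and macrophage list of the SP11 library (5047 CPM).

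Between libraries, the log2 ratio in the SP11 library was at least 0.32 above that of the control library for 215 of 2779 genes (7.74%) and at least as far below it for 247 (8.89%). These differences were not tested, since each condition had 1 library. For the G2M list the median difference was 0.30, and for the nucleolar list -0.17. With pairs drawn within clusters, the G2M medians were close, at -0.08 in the SP11 and -0.11 in the control library. Within MYC-high cells themselves, SP11 against control, the nucleolar list stood at 9362 against 7171 CPM (log2 ratio 0.38), and within MYC-0 cells at 8298 against 5890 CPM (0.49). HSP90AA1 stood at 2211 CPM in SP11 and 1106 CPM in control MYC-high cells (1.00), and had a ratio of 1.05 within MYC-0 cells. PVT1 stood at 167 against 297 CPM within MYC-high cells (-0.83) and at 122 against 165 CPM within MYC-0 cells (-0.43). The nucleolar list and HSP90AA1 were thus higher in the SP11 library in MYC-high and in MYC-0 cells, and PVT1 was lower in both sets.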

How the data were processed

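Counts of UMIs per gene and barcode were used as deposited by the authors, who made them with Cell Ranger 7.1.0 per the file headers, on GRCh38 (hg38) per the submitters' processing notes. The sources used do not say whether intronic reads were counted. MYC-high and MYC-0 cells were paired 1 to 1 within each library on total UMIs (at most 10% apart), which gave summed UMIs that differed little between the sets. UMIs were summed over each set, and log2 ratios of CPM (UMIs scaled to a common total) were given an exact 95% interval from the split of a gene's UMIs. Genes needed 200 UMIs over both sets. The members, the gene lists and the comparisons were chosen with earlier results of these data known.

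Phases and clusters came from Seurat 5.3.0 in R 4.3.3 (2000 variable genes, 10 principal components, resolution 0.5). Scrublet in scanpy 1.11.5 called 21 SP11 and 45 control cells as doublets, which were kept. Python 3.11.15, numpy 2.4.6, scipy 1.17.1 and pandas 2.3.3 were used, with edgeR 4.0.16 and the median-of-ratios estimator of DESeq2 1.42.0 for scaling alternatives only. The ratios and matching were tested on simulated data. Gene positions are those of GENCODE 44 on GRCh38.

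The SP11 library held 864 barcodes with 9561360 UMIs, 852 of which passed the gene and mitochondrial limits and 769 the limit of 4400 UMIs, and the control library 1076 barcodes with 19512669 UMIs, 1053 and 963. The deeper control library had more measured genes and narrower intervals. Genes were named by rule: genes of the MYC network or followed by the study with a log2 ratio of at least 0.32 in size in a library, up to 2 from each end of every other list, the 12 highest and 12 lowest in both libraries, and the 6 largest differences each way between libraries. Those of the nucleolar list and others beyond the rule were named after their values were seen.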

Additional observations from a re-analysis of the deposited data

Results flagged for a closer look

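For 6 of the 2779 genes measured in both libraries, the ratio of MYC-high over MYC-0 cells was at least 0.32 on the log2 scale in opposite directions in the SP11 and the control library. LAMP5, a lysosome-associated membrane protein gene, had log2 ratios of 0.84 and -0.37, a difference of 1.21, and MSRB3, a methionine sulfoxide reductase gene, of 0.71 and -0.35, a difference of 1.06. PDCD10, which stabilises kinases of cell junctions, had 0.50 and -0.37, a difference of 0.86. The other three were lower in MYC-high cells of the SP11 library and higher in those of the control library. ISG15, an interferon-induced ubiquitin-like protein gene, had -0.47 and 0.44 (difference -0.91), UHRF1, which maintains DNA methylation after replication, -0.37 and 0.44 (-0.81), and NAMPT, an enzyme of NAD synthesis, -0.41 and 0.34 (-0.75). With 1 library per condition the difference was not tested for any of them. The opposite directions were kept in part of the 15 alternatives that left the UMI minimum unchanged: in 12 for LAMP5 and MSRB3, 11 for ISG15, 9 for PDCD10, 6 for UHRF1 and 5 for NAMPT. For LAMP5, the control library had -0.20 within clusters and -0.15 after thinning, and the SP11 library 0.316 after thinning, so its call was lost in both settings.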

How the results depend on the processing

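No paired analysis was possible because each condition had 1 library. Which genes reached a log2 ratio of 0.32 depended strongly on how members were chosen and paired, whereas the medians of the nucleolar list moved in fewer settings. As reported, 190 genes were higher and 160 lower in the SP11 library, 603 and 399 in the control library, 48 and 27 in both, and the SP11 ratio was above that of the control for 215 and below it for 247. With members chosen after thinning each cell to 4400 UMIs, 98 were higher and 103 lower in the SP11 library, 316 and 260 in the control library, and 9 and 12 in both, of which 3 and 0 were among the 48 and 27. The nucleolar medians were then 0.0055 and 0.15, beside MYC levels of 214 CPM in SP11 and 234 CPM in control members. Their partners held 44.1 and 78.9 CPM. With members chosen on one part of each cell's UMIs, MYC stood at 169 and 218 CPM in the other part. With pairs drawn within clusters, 296 genes were higher in the control library and 26 in both, and the nucleolar median of the control library was 0.26. With the control threshold applied to both libraries, the SP11 library had 111 higher and 76 lower, both libraries 24 and 11, and the differences 113 above and 143 below. With the top 10% as members, the SP11 library had 98 higher and 70 lower, both libraries 23 and 9, and the differences 88 above and 144 below. Without matching, 288 were lower in the SP11 library and 56 in both, with 325 above and 471 below.

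The minimum of UMIs set how many genes were counted. With 50 UMIs in place of 200, 938 genes were higher and 841 lower in the SP11 library, 1503 and 1026 in the control library, 230 and 134 in both, and 1010 above and 1247 below. With 500 UMIs these counts were 25 and 33, 165 and 131, 5 and 6, and 31 and 43. With no minimum, over genes with at least 1 UMI in each set, they were 2782 and 2810, 3673 and 2985, 810 and 664, and 2864 and 3449.

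Ratios of single named genes counted as higher or lower changed sign in a few settings. MMP1 of the control library was at -2.74 with pairs within 5% of UMIs, -3.04 within phases, -3.05 within clusters, -4.32 with the top 10% and -0.78 after thinning. HIST1H4C was at 0.19 (SP11) and 0.072 (control) within clusters and 0.017 in the SP11 library after thinning. CEBPG of the SP11 library was at -0.0020 with the top 10%. After thinning, MX2 of the control library was at -0.011, and in the SP11 library TRIM14 at -0.00074, TASOR2 at -0.32, FAM111A at 0.070 and ATAD2 at 0.023. Among genes below that size, FTH1 of the control library, at 0.20 as reported, was between -0.52 (within clusters) and -0.04 (no matching) in 6 settings. SERPINB2 of the SP11 library, at -0.22, was at 0.47 with totals without mitochondrially encoded genes, and FKBP4 of the control library, just under the limit, was at -0.05 with the top 10%. The causes were not tested. Both ways of leaving out cells were chosen after seeing the data: with shared barcode names left out, 31 of the 48 and 18 of the 27 genes remained past that size in both libraries, and with clusters of under 20 cells left out, 38 and 20.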
